A study of Mus musculus with 16 samples.

Results

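Genes of protein folding and stress signalling in the endoplasmic reticulum (ER) were followed in kidney cortex of male C57BL/6J mice, 36 genes out of 55414 in the count table. Their rows were picked by name, as those whose Ensembl identifier carries the symbol in the GENCODE M21 mouse annotation, and not by a measured value. The genes and lists were, however, chosen with earlier results of these data known. Shares of the 36 set against all genes below are therefore descriptions and not tests. All 36 were found, and all 36 were among the 16126 genes with enough counts to be tested. The 16 libraries were made from poly(A) RNA of wild-type mice in 4 groups of 4, a sedentary control group and mice labelled 24 h, 1 wk or 2 wk for the duration of forced treadmill running. Running sessions lasted 40 minutes at 70% of capacity. Whether the 24 h mice were killed within a day of their run or a day after it is not in the labels, nor is their age. Each library name carries a code of its own, whose meaning is not given. Nothing else in the labels ties a library to its own mouse, and the p-values below are therefore measured against a spread between libraries that may be technical. The title of every sedentary library carries the letter G and that of every exercised library the letter F. What the letters stand for is not given, and they cannot be told apart from exercise.

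The ER folds proteins that are secreted or placed in membranes. Chaperones such as Hspa5 (BiP) hold unfolded chains, disulfide isomerases make and rearrange disulfide bonds, and chains that fail to fold are passed back to the cytosol for degradation. When unfolded protein builds up, the sensors Ern1 (IRE1), Atf6 and Eif2ak3 (PERK) set off the unfolded protein response, in which spliced Xbp1 and cleaved Atf6 switch on the chaperone and degradation genes. Proximal tubule cells, the most abundant cells of the cortex, place large amounts of transporters and endocytic receptors in their apical membrane. Sensor activity is set by protein cleavage, phosphorylation and mRNA splicing, none of which a gene count measures.

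Many chaperone promoters hold an ER stress response element (ERSE), the letters CCAAT and CCACG with any 9 bases between them, at which Atf6 and NF-Y act together. RefSeq promoter windows (GRCm38.p6, 250 bases before to 50 after a start site) were found for 30 of the 36 genes, as 33 windows, and were searched on both strands. ERSE was present in 9 of the 33 windows (27.3%) and in 39 of all 32851 mouse windows (0.119%). The related ERSE-II, ATTGG and CCACG with any 1 base between them, was present in 2 of the 33 (6.06%), those of Herpud1 and Dnajb11, against 0.0365% of all windows. The cores of the 2 motifs share letters, but no window held both. Of 3 further motifs, UPRE (TGACGTGG, bound by Xbp1 and Atf6) was in 1 of the 33 against 0.676% of all windows. The amino acid response motif TTNCATCA was in 2 of the 33 (6.06%), against 3.97% of all windows. The heat shock element, GAA, TTC and GAA with any 2 bases between each, was in 0 of the 33, against 0.603% of all windows. A match is a description of the letters and not evidence of binding, and a window without one says only that these letters are not in it. The 250 bases before the start site are given below for the 4 genes with the smallest p-values at 24 h that had an entry, 5′ to 3′ on the strand of the gene, with ERSE in capitals where there is one. The windows lie at chr19:6046326-6046575 on the plus strand (Syvn1), chr15:88819396-88819645 on the plus strand (Creld2), chr2:34771840-34772089 on the plus strand (Hspa5) and chr6:47813513-47813762 on the minus strand (Pdia4).
Syvn1: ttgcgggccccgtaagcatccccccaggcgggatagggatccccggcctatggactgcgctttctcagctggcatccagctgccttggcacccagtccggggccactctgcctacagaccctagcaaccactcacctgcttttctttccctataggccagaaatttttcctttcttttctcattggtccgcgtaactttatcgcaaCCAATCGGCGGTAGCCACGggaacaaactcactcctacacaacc
Creld2: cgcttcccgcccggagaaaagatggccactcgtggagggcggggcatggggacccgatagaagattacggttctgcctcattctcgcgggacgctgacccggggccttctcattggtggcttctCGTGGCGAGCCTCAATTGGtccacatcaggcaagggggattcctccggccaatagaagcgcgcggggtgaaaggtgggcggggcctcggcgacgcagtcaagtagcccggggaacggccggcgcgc
Hspa5: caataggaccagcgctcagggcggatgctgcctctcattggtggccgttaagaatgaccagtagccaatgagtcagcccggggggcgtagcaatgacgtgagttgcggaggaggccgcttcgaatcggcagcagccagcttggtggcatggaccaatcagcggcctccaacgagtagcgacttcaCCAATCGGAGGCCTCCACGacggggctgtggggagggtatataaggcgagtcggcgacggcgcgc
Pdia4: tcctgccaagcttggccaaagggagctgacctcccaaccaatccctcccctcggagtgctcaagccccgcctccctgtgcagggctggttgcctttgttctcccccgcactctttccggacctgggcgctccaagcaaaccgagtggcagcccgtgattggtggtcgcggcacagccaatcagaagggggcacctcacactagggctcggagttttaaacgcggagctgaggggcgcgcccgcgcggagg
In Syvn1 the element sat 44 to 26 bases before the start and in Hspa5 65 to 47 bases before it, both in the direction of the gene. In Creld2 it lay on the opposite strand, 126 to 108 bases before the start, and the Pdia4 window held no match. Read in the direction of the motif, with its fixed letters in capitals, the elements differ in the spacer.
Hspa5 element: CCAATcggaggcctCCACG
Syvn1 element: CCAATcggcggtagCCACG
Creld2 element: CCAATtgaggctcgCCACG
Pdia6 element: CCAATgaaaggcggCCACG
Calr element: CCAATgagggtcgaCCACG
Herpud1 element (ERSE-II): ATTGGgCCACG
Dnajb11 element (ERSE-II): ATTGGcCCACG
Hsp90b1 held 2 ERSE matches, and Canx, Dnajc3 and Derl3 held 1 each.

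The libraries held 39766260 to 66852397 counts each, so the depth was similar across groups, and the least abundant of the 36 genes, Derl3, had at least 17 counts in every library. Levels are given as CPM, the counts of a gene relative to the library total, scaled by the trimmed mean of M-values. Markers matched the label of cortex, with the 12 proximal tubule genes summing to 66096 to 74549 CPM in sedentary libraries and the 8 podocyte genes to 221 to 278 CPM. Mitochondrially encoded genes took 3.91% ± 0.412 of counts (SD, n = 4) in sedentary and 2.47% ± 0.228 (SD, n = 4) in 24 h libraries. Library composition also varied with gene length. Against the sedentary mean, the median log2 level of the 2149 genes with the longest exons minus that of the 2149 with the shortest was -0.42 in the 3rd 1 wk library, 0.36 in the 4th 1 wk library and 0.40 in the 2nd 2 wk library. In the 3rd and 4th 24 h libraries it was -0.22 and -0.17, in the 2nd 1 wk library -0.21, and within 0.09 of 0 in the other 10. In bulk tissue, a lower level from fewer cells of a type and from less RNA per cell cannot be told apart.

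Sedentary cortex carried these genes over a wide range of levels per exon length. The disulfide isomerase P4hb, also the beta subunit of prolyl hydroxylase, was highest at 435 ± 11.4 CPM per kb of exon (SD, n = 4). The lectin chaperone Calr followed at 358 ± 21.3 CPM per kb and its partner isomerase Pdia3 at 204 ± 11.2. Hspa5 at 169 ± 21.3, Herpud1 at 148 ± 12.4 and the Hsp90 family chaperone Hsp90b1 at 143 ± 11.1 CPM per kb came next and did not differ beyond their spread. The sensors stood at the other end, with Eif2ak3 at 4.87 ± 0.367, Atf6 at 4.86 ± 0.36 and Ern1 at 2.02 ± 0.13 CPM per kb. Lowest was Derl3, a derlin known for its high level in secretory cells, at 0.947 ± 0.338 CPM per kb. Together the 36 genes took 0.756% ± 0.0238 of counts in sedentary libraries, 0.921% ± 0.14 at 24 h, 0.775% ± 0.0292 at 1 wk and 0.783% ± 0.0961 at 2 wk (SD, n = 4 each).

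The first question was how the cortex of mice labelled 24 h differed from sedentary cortex. No gene of the 36 passed an adjusted p of 0.05 in edgeR's quasi-likelihood test with Benjamini-Hochberg adjustment over 16126 genes, and neither did any other gene (0% of genes called). The smallest adjusted p among the 36 was 0.179. The genes with the smallest unadjusted p were Syvn1, a ubiquitin ligase, Creld2 and Manf, which are stress-induced, and the Hspa5 partner Hyou1. At an unadjusted p under 0.05, 12 of the 36 were higher at 24 h, against 4.49% of all genes tested, and 0 were lower, against 4.43% of all genes. In 9 of the 36, every 24 h library was above every sedentary library, against 3.55% of all genes. The median log2 fold change of the 36 was 0.121, with 27 above 0, and that of all genes tested was -0.005, with 49.0% above 0. DESeq2 called Hyou1, Creld2 and Syvn1, 3 of the 36, against 0.497% of the genes to which it gave an adjusted p. Limma voom with sample quality weights called Creld2 and Syvn1, 2 of the 36, against 0.366% of all genes.

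**Figure D1:**
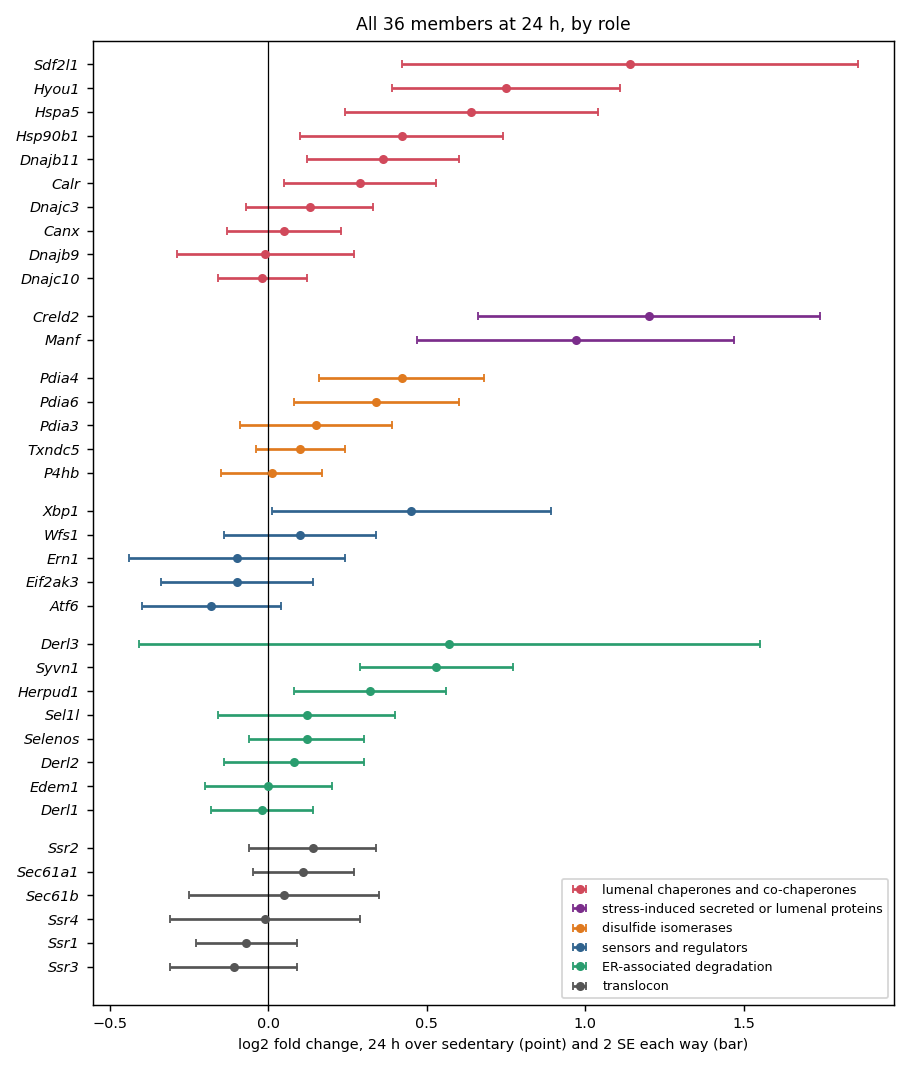
Log2 fold change at 24 h against sedentary for each of the 36 genes (x axis, log2 units), grouped by role, with bars of 2 standard errors from edgeR. The genes above 1 log2 unit are Creld2 at 1.20 and Sdf2l1 at 1.14, and the sensors lie around 0.

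Among the 10 lumenal chaperones and co-chaperones, 6 had an unadjusted p under 0.05, all higher at 24 h, and the median log2 fold change was 0.324. Hspa5, the ER Hsp70 that also binds and restrains the sensors, stood at 623, 662, 757 and 821 CPM in the 4 sedentary libraries and at 816, 932, 1716 and 999 CPM at 24 h. The groups overlapped at a single point, the 1st 24 h library lying just under the highest sedentary library, while the 3rd 24 h library stood far above all others. The log2 fold change was 0.64 ± 0.20 (SE; unadjusted p 0.00432, adjusted p 0.316 by edgeR). Hyou1, the nucleotide exchange factor of Hspa5 (chr9:44379490-44392369), was at 123, 123, 125 and 144 CPM in sedentary and at 154, 206, 314 and 189 CPM in 24 h libraries. The groups did not overlap, and the log2 fold change was 0.75 ± 0.18 (SE; unadjusted p 0.000634, adjusted p 0.192). Sdf2l1, a small lumenal partner of Hspa5 and Dnajb11 (chr16:17130138-17132383), had 14.7, 20, 22.0 and 18.5 CPM in sedentary and 27.1, 36.4, 73.5 and 28.7 CPM in 24 h libraries. These groups too were apart, with a log2 fold change of 1.14 ± 0.36 (SE; unadjusted p 0.00667, adjusted p 0.356).

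Dnajb11, a J-protein that hands unfolded chains to Hspa5, was at 134, 144, 133 and 143 CPM in sedentary and 157, 168, 217 and 169 CPM in 24 h libraries, with no overlap (log2 fold change 0.36 ± 0.12, unadjusted p 0.00626). Hsp90b1 was at 525, 612, 555 and 617 CPM in sedentary libraries and at 688, 677, 1061 and 658 CPM at 24 h, again without overlap (0.42 ± 0.16, unadjusted p 0.0200). For Hsp90b1 the distance between groups was small apart from the 3rd 24 h library. Calr, which holds glycoproteins by their sugars, was at 1047, 1103, 955 and 1022 CPM in sedentary and 1128, 1177, 1501 and 1229 CPM in 24 h libraries, also apart (0.29 ± 0.12, unadjusted p 0.0299). The other 4 chaperones overlapped between the groups. These were the membrane-bound lectin Canx and the J-proteins Dnajb9, Dnajc3 and Dnajc10, with log2 fold changes from -0.02 to 0.13. Dnajb9, a repressor of Ern1 and a common marker of Xbp1 activity, was at 24.5 to 34.7 CPM at 24 h and 25.5 to 34.2 CPM in sedentary libraries. Its fold at 24 h was 0.994, with 2 standard errors spanning 0.82 to 1.2.

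Both stress-induced secreted or lumenal proteins had an unadjusted p under 0.05, and Creld2 had the highest fold change of the 36. Creld2, an ER-resident protein that is partly secreted under stress (chr15:88819646-88826683), was at 41.4, 45.6, 50 and 51.7 CPM in sedentary libraries and at 69.2, 86.8, 191 and 87.2 CPM at 24 h. Every 24 h library lay above every sedentary library, and the 3rd was far above the other 3 of its group. The fold change was 2.3, or 1.20 ± 0.27 on the log2 scale (SE; unadjusted p 0.000401, adjusted p 0.179 by edgeR). Manf, a secreted protein that binds Hspa5 in the ER and is protective in models of ER stress (chr9:106838312-106891979), was at 69.8, 68.3, 84.6 and 83.9 CPM in sedentary and 93.7, 119, 249 and 137 CPM in 24 h libraries. The order of the libraries within 24 h was that of Creld2, and the log2 fold change was 0.97 ± 0.25 (SE; unadjusted p 0.00107, adjusted p 0.214). Exons of Manf overlap those of Rbm15b on the same strand and Dcaf1 on the other, and those genes were at 17.3 and 22.3 CPM with log2 fold changes of 0.11 and -0.11. The strand setting of the counting is not given, so the split of reads at such overlaps is uncertain.

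**Figure D2:**
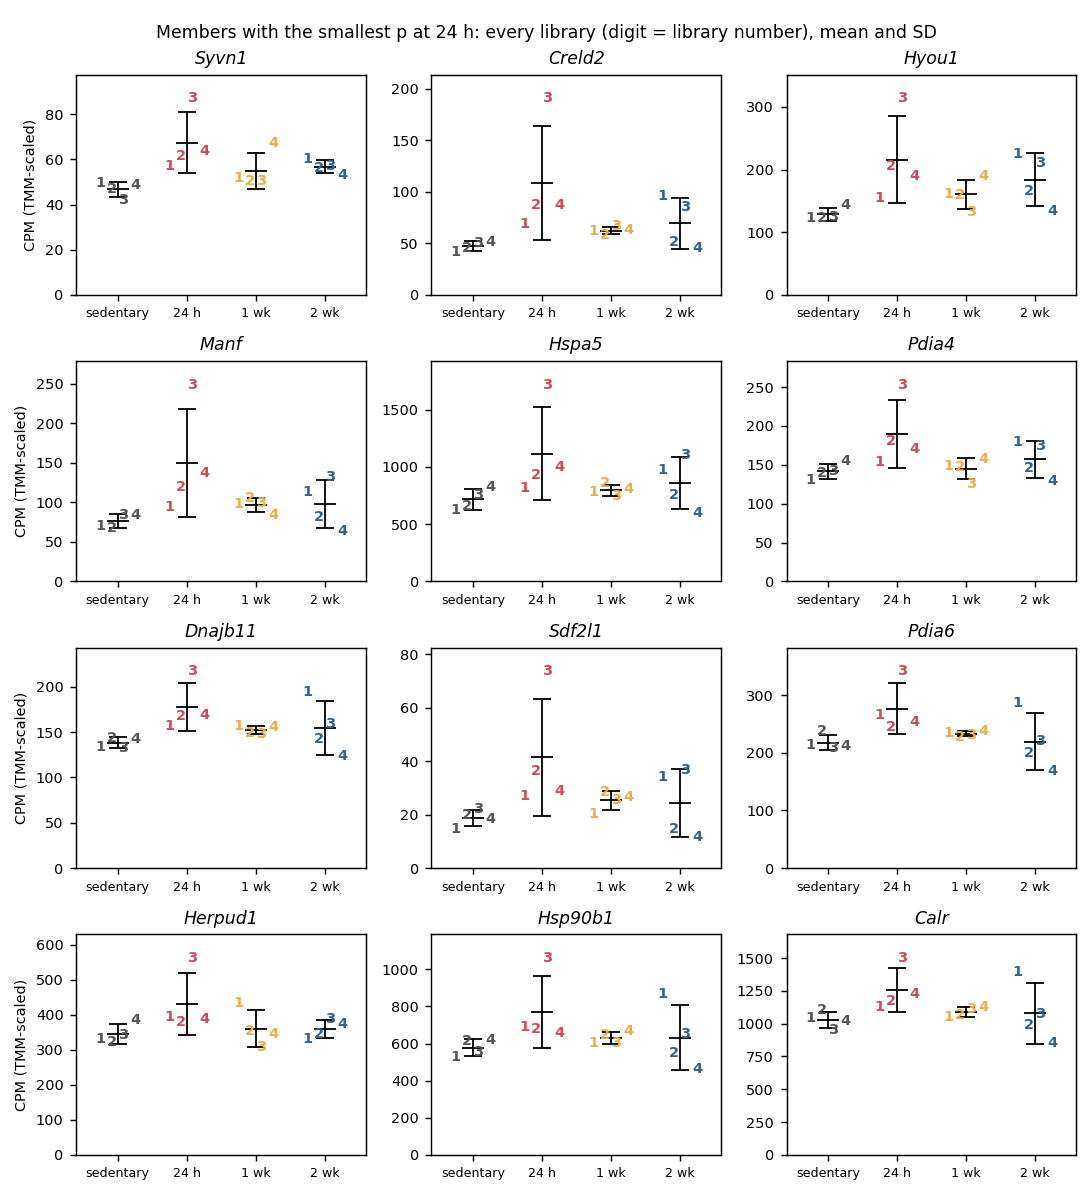
CPM in each of the 16 libraries (y axis, CPM from 0; each digit is a library number) for leading genes of the set, by group (x axis), with the group mean and SD. In each panel the 3rd 24 h library is the highest of its group, at 1716 CPM for Hspa5 and 191 CPM for Creld2. The 2 wk libraries are spread out in most panels but close together for Syvn1 (53.1 to 60.4 CPM) and Herpud1 (330 to 388 CPM).

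All 5 disulfide isomerases had a fold change above 0, with 2 at an unadjusted p under 0.05 and a median of 0.154. Pdia4, an isomerase with an extra thioredoxin-like domain, was at 131, 139, 142 and 155 CPM in sedentary and 154, 181, 253 and 171 CPM at 24 h. The groups overlapped only between the highest sedentary and the lowest 24 h library (log2 fold change 0.42 ± 0.13, unadjusted p 0.00536, adjusted p 0.330 by edgeR). Pdia6, which attenuates Ern1 signalling, was at 213, 238, 209 and 211 CPM in sedentary and 265, 245, 341 and 254 CPM at 24 h, with no overlap (0.34 ± 0.13, unadjusted p 0.0157, adjusted p 0.438). Pdia6 exons overlap Atp6v1c2 on the opposite strand, which was at 24.0 CPM with a log2 fold change of 0.16. For the other 3 isomerases the groups overlapped. Pdia3 had a log2 fold change of 0.15 ± 0.12, Txndc5 of 0.10 ± 0.07 and P4hb of 0.01 ± 0.08, and P4hb at 24 h was between 1170 and 1319 CPM against 1198 to 1268 CPM in sedentary libraries.

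None of the 5 sensors and regulators had an unadjusted p under 0.05 at 24 h in the edgeR test above, and their median log2 fold change was -0.097. With DESeq2, Xbp1 was higher at an unadjusted p of 0.0355 (adjusted p 0.459). With limma voom, Atf6 was lower at an unadjusted p of 0.0422 (adjusted p 0.332). Ern1, the kinase and nuclease that splices Xbp1 mRNA, was at 16.2, 17.3, 15.1 and 17.3 CPM in sedentary and 16.1, 17.1, 13.3 and 14.9 CPM in 24 h libraries (log2 fold change -0.10 ± 0.17). Atf6, the membrane-bound transcription factor, was at 45.1, 45.3, 40.5 and 48.6 CPM and then 39.5, 45.1, 35.5 and 38.5 CPM (-0.18 ± 0.11, unadjusted p 0.134). Eif2ak3, the kinase that slows translation, was at 30.6, 29.0, 26.4 and 31.4 CPM and then 27.0, 25.7, 26.2 and 30.9 CPM (-0.10 ± 0.12). In all 3 sensors the ranges of the groups overlapped, and 2 standard errors around the fold spanned 0.735 to 1.18 for Ern1, 0.754 to 1.04 for Atf6 and 0.79 to 1.11 for Eif2ak3. Ern1 and Atf6 are among the 2149 genes with the longest exons, and Eif2ak3, with 6026 bases, is just below it. In the 3rd 1 wk library, in which long genes were low, they were at 10.4, 35.2 and 21 CPM, and in the 4th, in which long genes were high, at 22.1, 53.6 and 29.3 CPM. In the 4th 24 h library, in which long genes were also low, Eif2ak3 was at 30.9 CPM, the highest of its group. The part of gene length in these values was not tested. Xbp1, whose spliced form drives chaperone and degradation genes, was at 142, 142, 169 and 156 CPM in sedentary and 163, 128, 301 and 238 CPM in 24 h libraries. Its groups overlapped, with the 3rd and 4th 24 h libraries high and the 2nd below all sedentary ones (0.45 ± 0.22, unadjusted p 0.0534, adjusted p 0.565 by edgeR). The fitted value was -0.06 ± 0.20 without the 3rd and 4th 24 h libraries. Wfs1, an ER membrane protein that restrains Atf6, was at 14.2 to 19.3 CPM in sedentary and 17.6 to 19.6 CPM in 24 h libraries.

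**Figure D3:**
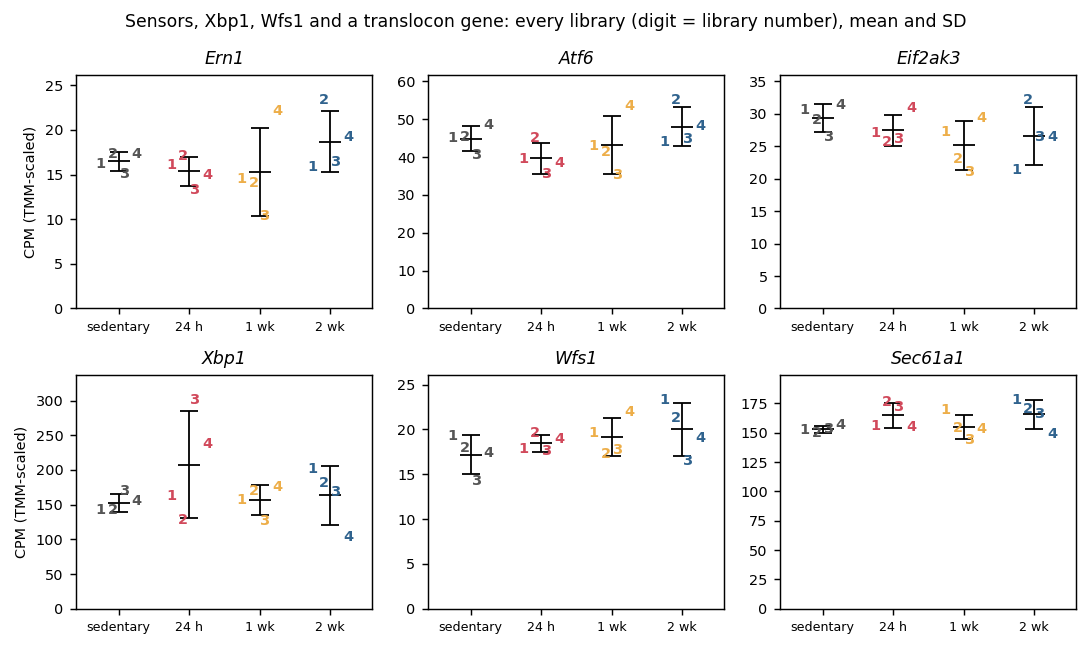
CPM in each library (y axis, CPM from 0; each digit is a library number) for the sensors Ern1, Atf6 and Eif2ak3, the regulators Xbp1 and Wfs1 and the translocon subunit Sec61a1, by group (x axis), with mean and SD. The sensors overlap between sedentary and 24 h, Xbp1 is split within 24 h between 128 and 301 CPM, and Ern1 is widest at 1 wk, from 10.4 to 22.1 CPM.

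Of the 8 genes of ER-associated degradation, 7 were above 0 at 24 h, with Edem1 at 0.00, and 2 had an unadjusted p under 0.05, with a median of 0.121. Syvn1 (Hrd1), the membrane ubiquitin ligase at the centre of this pathway (chr19:6046576-6053712), had the smallest p of the 36. It was at 49.6, 47.0, 41.9 and 48.5 CPM in sedentary and 57.1, 61.6, 87.2 and 63.8 CPM in 24 h libraries, with no overlap. The log2 fold change was 0.53 ± 0.12 (SE; unadjusted p 0.000336, adjusted p 0.179 by edgeR). Exons of Syvn1 overlap those of the mitochondrial ribosome gene Mrpl49 on the opposite strand, which was at 69.8 CPM with a log2 fold change of 0.07 ± 0.09. Herpud1, a stress-induced scaffold of the same ligase complex, was at 330, 321, 342 and 386 CPM in sedentary and 395, 380, 562 and 387 CPM in 24 h libraries. Its groups overlapped by 1 library and 3 of the 4 values at 24 h were close together (0.32 ± 0.12, unadjusted p 0.0180, adjusted p 0.459). Sel1l, the adaptor that holds the ligase complex together, had a log2 fold change of 0.12 ± 0.14. The mannose-trimming protein Edem1, the channel proteins Derl1 and Derl2 and the selenoprotein Selenos lay between -0.02 and 0.12. Derl3 had the highest value of the rest, 0.57 ± 0.49, but was at only 1.27 to 5.63 CPM at 24 h and 1.19 to 2.74 CPM in sedentary libraries.

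The 6 translocon genes, which move new chains across the ER membrane, had a median log2 fold change of 0.022 at 24 h. By edgeR, 0 had an unadjusted p under 0.05, and with limma voom Ssr2 was higher at 0.0445 (adjusted p 0.34). The channel subunits Sec61a1 and Sec61b were at 0.11 ± 0.08 and 0.05 ± 0.15, and the 4 signal sequence receptor genes Ssr1 to Ssr4 lay between -0.11 and 0.14. Across the 6 genes, 2 standard errors around the fold reached no lower than 0.807 and no higher than 1.28. Sec61b, with 1271 bases of exon, is among the 2149 genes with the shortest exons, and it was highest in the 3rd 1 wk library, at 106 CPM, in which short genes were high as a whole. Ssr4, with 3096 bases just outside that range, was also highest there, at 160 CPM. The part of gene length in that was not tested.

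A single library carried much of the size of the 24 h values. Whether the direction of the 12 leading genes rests on it cannot be tested here, because they were picked by their p in the same libraries. In 9 of them every 24 h library was above every sedentary library, so leaving a library out could not change their direction. The counts without libraries below describe the same values and are not a separate test. The 3rd 24 h library was the highest of its group in all 12 genes with an unadjusted p under 0.05 and in 25 of the 36, and the 1st was the lowest in 9 of the 12. Without the 3rd library, 8 of the 36 were higher at an unadjusted p under 0.05, against 2.64% of all genes, and the median was 0.086. These 8 were Hspa5, Hyou1, Dnajb11, Sdf2l1, Creld2, Manf, Pdia4 and Syvn1, while Hsp90b1, Calr, Pdia6 and Herpud1 no longer had such a p. Without the 3rd and 4th libraries together, a choice made after the data were seen, the 5 genes Hyou1, Sdf2l1, Creld2, Manf and Syvn1 remained, against 2.02% of all genes. Creld2 was then at 0.73 ± 0.22 log2 units, Hyou1 at 0.49 ± 0.18 and Syvn1 at 0.35 ± 0.12. Hspa5 went from 0.64 to 0.36 ± 0.16 without the 3rd library and to 0.29 ± 0.18 without both. Spread within 24 h was large for the 12 genes, with a median coefficient of variation of 24.0% against 7.78% in sedentary libraries. For all genes at 10 CPM or more it was 8.44% against 6.99%.

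The longer durations were then set against the same sedentary libraries, so these values are not independent of those at 24 h. At 1 wk the 36 genes had a median log2 fold change of 0.037. Dnajb9 alone had an unadjusted p under 0.05, at -0.29 ± 0.14 (p 0.0481, adjusted p 0.825 by edgeR), so 1 of 36 was lower against 3.72% of all genes. Its levels at 1 wk were 23.8, 29.7, 23.3 and 21.8 CPM, against 29.5, 25.5, 34.2 and 31.7 CPM in sedentary libraries. Leaving out any 1 of 6 of the 8 libraries, all but the 2nd of each group, took its p above the threshold. Without the 4th 1 wk library, Ern1 and Eif2ak3 were lower at such a p in its place, 2 of the 36 against 5.40% of all genes. Creld2 at 1 wk was at 61.5, 58.5, 66.4 and 62.7 CPM, still above all sedentary libraries and below all 24 h libraries (0.40 ± 0.27 against sedentary, unadjusted p 0.155). Manf at 98.0, 106, 99.5 and 84.7 CPM also lay above all sedentary libraries. So did Dnajb11 and Syvn1, making 4 of the 36, against 275 of 16126 genes. At 1 wk, 3 of the 36 lay below all 24 h libraries, against 299 of 16126 genes. At 2 wk the median was 0.071, and 2 of the 36 were higher at an unadjusted p under 0.05, against 4.02% of all genes. Hyou1 was at 225, 166, 211 and 134 CPM (0.52 ± 0.18, unadjusted p 0.0106, adjusted p 0.522). Syvn1 was at 60.4, 56.4, 57.3 and 53.1 CPM, with all 4 libraries above all sedentary ones (0.28 ± 0.12, unadjusted p 0.0316, adjusted p 0.640). It was the only 1 of the 36 so placed, against 370 of 16126 genes. Leaving out 1 library at a time, Hyou1 kept a p under 0.05 in every case and Syvn1 in 4 of 8. Without the 4th 2 wk library, 5 of the 36 were higher at such a p, against 3.11% of all genes.

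At 2 wk the libraries were spread out for several of the genes. Hspa5 was at 974, 753, 1102 and 594 CPM, Creld2 at 95.6, 51.4, 85.1 and 45.5 CPM and Sdf2l1 at 34.0, 14.8, 36.7 and 11.8 CPM. For these 3 genes the 1st and 3rd 2 wk libraries were high and the 2nd and 4th were within or below the sedentary range. Hyou1 differed from them in the 2nd library, at 166 CPM, above all sedentary libraries. With 7230 bases Hyou1 is among the 2149 genes with the longest exons, which were high in that library. Creld2 (1366 bases) and Sdf2l1 (1108 bases) are among the 2149 with the shortest, and Hspa5, with 4229 bases, is in neither. In the 3rd 24 h library, in which long genes were low, Hyou1, Creld2 and Sdf2l1 each had their highest value of all 16 libraries. The part of gene length in these values was not tested. Over the 12 leading genes, the 1st 2 wk library was the highest of its group in 8 and the 3rd in 4. The 4th was the lowest in 11. The median coefficient of variation of these 12 genes was 22.7% at 2 wk and 7.63% at 1 wk. For all genes at 10 CPM or more it was 11.8% and 11.9%. At 1 wk Hspa5 was at 779, 859, 744 and 805 CPM, with 3 of the 4 within the sedentary range.

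**Figure D4:**
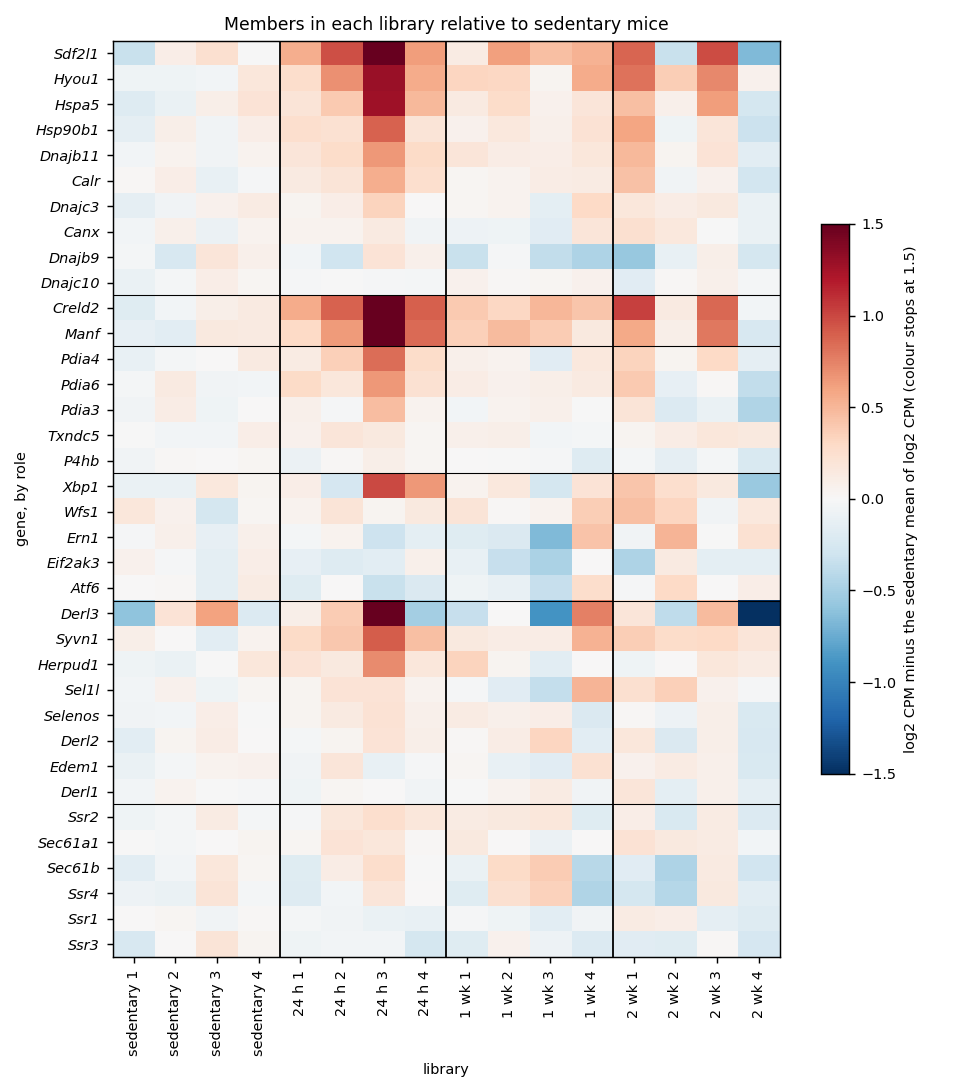
Log2 level of each of the 36 genes (rows, by role) in each of the 16 libraries (columns, by group) relative to the mean of the sedentary libraries, as colour that stops at 1.5 log2 units. The 3rd 24 h library is the highest column for the chaperones other than Canx and Dnajc10 and for Creld2 and Manf. At 2 wk the 1st and 3rd columns are high for many of these genes and the 4th is low.

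Direct tests between durations asked whether the 24 h values differed from the later ones. They share the 24 h libraries, so they are given side by side. From 24 h to 1 wk, 6 of the 36 were lower at an unadjusted p under 0.05, against 4.72% of all genes. Creld2 was at -0.80 ± 0.27 (p 0.00879), Pdia4 at -0.39 ± 0.13 (p 0.00925) and Manf at -0.63 ± 0.24 (p 0.0201) by edgeR. Syvn1 at -0.30 ± 0.12, Hspa5 at -0.49 ± 0.20 and Hyou1 at -0.43 ± 0.18 made up the 6, and the lowest adjusted p was 0.447. Of all 36, the median was -0.094. The count was 0 without the 3rd 24 h library, 3 without the 3rd 1 wk library and 10 without the 1st or the 2nd 24 h library. Among all genes, in either direction, it was 662 of 16319, 1362 of 16320, 950 of 16306 and 1571 of 16335 in that order. With all 16 libraries it was 1153 of 16126. From 24 h to 2 wk, 6 of the 36 were lower, against 4.32% of all genes, and 1 was higher, against 5.29%. The lower genes were Pdia6 (-0.34 ± 0.13), Manf (-0.62 ± 0.24), Creld2 (-0.65 ± 0.27), Pdia3 (-0.28 ± 0.12), Herpud1 (-0.26 ± 0.12) and Sdf2l1 (-0.77 ± 0.36), and the median of all 36 was -0.177. Atf6 was the higher gene, at 44.1, 55.2, 44.8 and 48.1 CPM at 2 wk (0.28 ± 0.11, unadjusted p 0.0255, adjusted p 0.475). Of these 7 genes in either direction, 0 had such a p without the 3rd 24 h library, and only 1 of the 36 had one without the 2nd or without the 4th 2 wk library. The count was 11 without the 1st 24 h or the 1st 2 wk library and 13 without the 3rd 2 wk library. Among all genes it was 814 of 16319 without the 3rd 24 h library and 1481 of 16306 without the 1st. Without the 1st, 2nd, 3rd and 4th 2 wk library it was 1653 of 16337, 1076 of 16336, 2356 of 16330 and 1180 of 16322. With all 16 libraries it was 1549 of 16126. None of the 36 passed the adjusted threshold there, at which 0.0124% of all genes were called, 2 genes in all. Between 1 wk and 2 wk, 0 of the 36 had an unadjusted p under 0.05, against 2.86% of all genes higher and 1.71% lower at 2 wk, and the median was 0.014. Without the 4th 1 wk library, 6 of the 36 had such a p, Ern1, Atf6 and Sel1l higher and Sec61b, Ssr2 and Ssr4 lower at 2 wk, against 17.1% of all genes in either direction. The count was 2 without the 1st 2 wk library, against 968 of 16337 genes, and 1 without the 3rd, against 1583 of 16330. In the test over all 4 groups at once, 9 of the 36 had an unadjusted p under 0.05, against 8.73% of all genes. The smallest adjusted p among the 36 was 0.335, and 0.0124% of all genes were called.

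Neighbouring pathways were described by their counts at 24 h. The counts in this list and those below stand against 4.49% of all genes higher and 4.43% lower at an unadjusted p under 0.05 by edgeR. In the integrated stress response, the branch downstream of Eif2ak3 and of the amino acid sensing kinase, 8 of 23 tested genes were higher and 1 lower at an unadjusted p under 0.05, with a median log2 fold change of 0.223. Asns, asparagine synthetase, was at 5.06 ± 0.909 CPM in sedentary and 10.5 ± 0.931 CPM in 24 h libraries (SD, n = 4 each), a log2 fold change of 1.05 ± 0.17 (adjusted p 0.0621 by edgeR). Atf5, a transcription factor of that response, was at 0.55 ± 0.09 (adjusted p 0.0621), the mitochondrial folate enzyme Mthfd2 at 0.71 ± 0.14 and the proline synthesis enzyme Aldh18a1 at 0.63 ± 0.21. The mean log2 level of the list over the sedentary mean was 0.22, 0.05, 0.47 and 0.20 in the 4 libraries at 24 h, again highest in the 3rd. Ddit3, the stress transcription factor CHOP, had a log2 fold change of 0.30 ± 0.19 and Trib3 of -0.30 ± 0.27, both with overlapping groups and both named after their values were seen.

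Further ER genes outside the 36 stood closer to the level of sedentary mice. Of 23 other folding and redox genes, 3 were higher at an unadjusted p under 0.05, against 4.49% of all genes, with a median of 0.069. The isomerase Pdia5 at 0.38 ± 0.13 and Erp29 at 0.35 ± 0.13 had the smallest p-values, before Creld1 at 0.30 ± 0.13 and Fkbp11 at 0.33 ± 0.16. Of 17 N-glycosylation genes, 2 were higher, Ostc at 0.27 ± 0.11 and Mogs at 0.17 ± 0.07, and the median was 0.051. Of 20 further translocation and signal peptide genes, 0 had such a p, with a median of 0.007. Of 20 further degradation genes, 2 were higher and 2 lower (median 0.019), with Ubxn4 at 0.22 ± 0.09 and Ube2g2 at 0.24 ± 0.10, and Erlec1 at -0.22 ± 0.08 and Marchf6 at -0.37 ± 0.16. In ER-to-Golgi transport, 2 of 26 were higher (median 0.011), the retrieval receptor Kdelr3 at 0.55 ± 0.20 and the cargo lectin Lman2 at 0.19 ± 0.08.

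Cytosolic heat shock genes had the highest share of low p-values among these neighbouring lists. All 21 had a log2 fold change above 0 at 24 h, 15 of them at an unadjusted p under 0.05, with a median of 0.520. The co-chaperones Ahsa1 (0.62 ± 0.16) and Stip1 (0.64 ± 0.19), the exchange factor Hsph1 (0.87 ± 0.23) and the inducible Hsp70 gene Hspa1b (1.59 ± 0.45) had the smallest p-values, and the lowest adjusted p was 0.214 by edgeR. The mean log2 level of this list over the sedentary mean was 0.12, 0.22, 1.09 and 0.59 in the 4 libraries at 24 h and 0.44, -0.05, 0.36 and -0.05 at 2 wk. For the 10 lumenal chaperones the same libraries gave 0.16, 0.26, 0.73 and 0.24 at 24 h and 0.33, 0.02, 0.31 and -0.21 at 2 wk. In both lists the 3rd 24 h library and the 1st and 3rd 2 wk libraries were the high ones of their groups. The part of whatever moved the heat shock genes in the ER values was not tested.

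**Figure D5:**
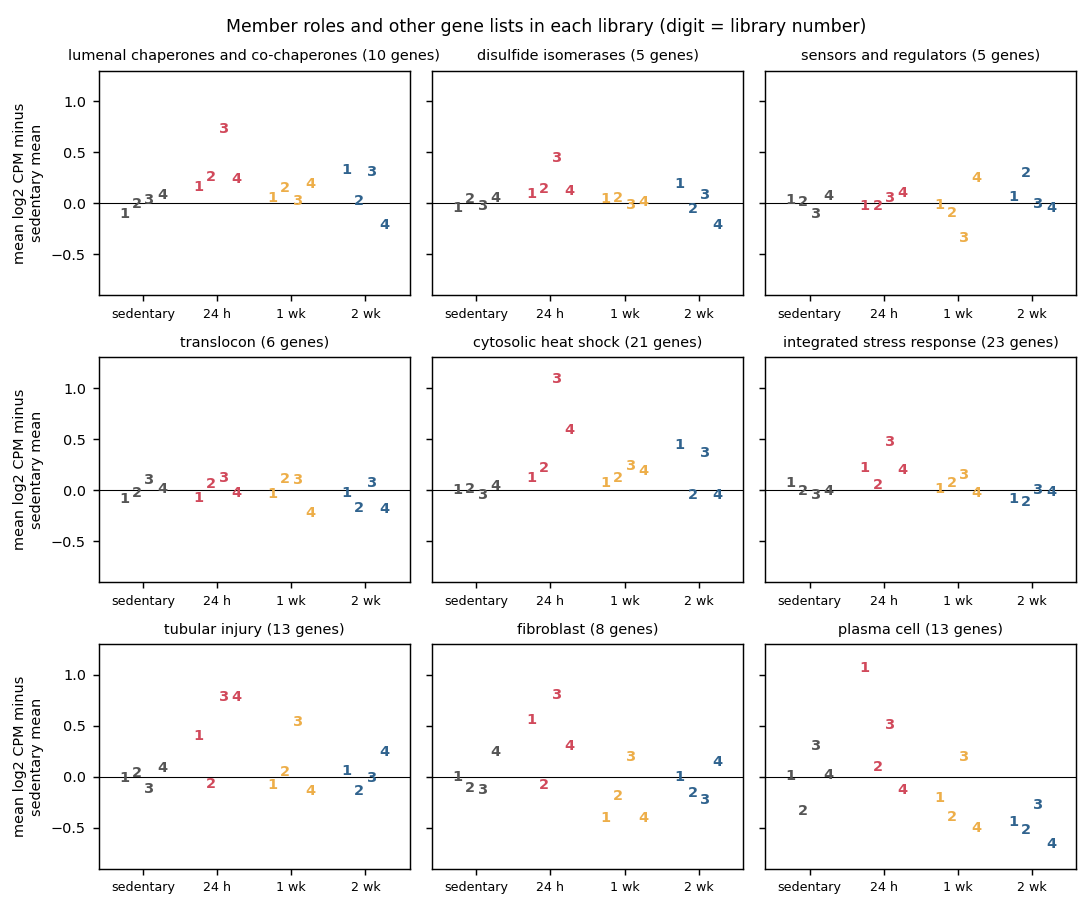
Mean log2 level over the sedentary mean (y axis) of 4 roles of the set, 2 neighbouring pathways and 3 marker lists in each of the 16 libraries (x axis, by group; each digit is a library number). The plasma cell list here includes Xbp1 and Derl3. Lumenal chaperones reach 0.73 and cytosolic heat shock genes 1.09 in the 3rd 24 h library, and both lists are high in the 1st and 3rd 2 wk libraries.

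Some marker lists stood higher in the 24 h group and others lower. Of all genes tested, 4.49% were higher and 4.43% lower at an unadjusted p under 0.05 by edgeR. Tubular injury genes summed to 863 to 1033 CPM in sedentary and 998 to 1463 CPM in 24 h libraries, with 12 of 13 above 0 and 8 at an unadjusted p under 0.05. Fibroblast genes, themselves rich in secretory machinery, summed to 111 to 153 CPM and then 127 to 214 CPM, with 8 of 8 above 0 and 4 at such a p. Plasma cells are rich in ER, and their markers without the genes of the set summed to 32.9 to 45.8 CPM in sedentary and 41.2 to 121 CPM in 24 h libraries, with 121 in the 1st and 60.6 in the 3rd. For the 12 leading ER genes, the 1st library was the lowest of its group in 9 and the 3rd the highest in 12. With Xbp1 and Derl3 counted, 9 of 13 tested plasma cell genes were above 0 and 4 below (median 0.448). Of these, 3 were higher at an unadjusted p under 0.05 and 0 lower. The plasma cell receptor gene Tnfrsf17 was at 0 to 0.043 CPM in all libraries. B cell genes summed to 2.69 to 4.13 CPM in sedentary and 1.80 to 3.74 CPM in 24 h libraries. The 12 proximal tubule genes were all below 0, at 58558 to 66735 CPM in sum, with 0 at such a p by edgeR. With limma voom 6 of the 12 had such a p, against 2282 of 16126 genes, and with DESeq2 1, against 1572 of 16124. In 2 of the 12, every 24 h library was below every sedentary library, against 590 of 16126 genes. Endothelial genes were below 0 in 6 of 8 (median -0.073) and those of the thick ascending limb in 3 of 5 (median -0.037). The part of cell composition in the ER values was not tested.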

How the data were processed

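RNA was measured by sequencing of poly(A) libraries (TruSeq Stranded mRNA, per the labels' protocols). The deposited values are whole-number read counts per Ensembl gene, made by the authors. The submitters' processing notes name HTSeq 0.10.0, FastQC 0.10.1 and mm10 (GRCm38). For the aligner, annotation and strand setting, the sources used here give nothing. The table has 24 columns, of which 16 were matched to the libraries by title and 8 were not used here. GENCODE M21 named 94.1% of the 55414 genes, which hold 99.4% of counts.

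All 16 libraries went into 1 edgeR 4.0.16 fit (R 4.3.3) with a coefficient per group, TMM scaling, filterByExpr by group and a robust quasi-likelihood F-test. P-values were adjusted by Benjamini-Hochberg over 16126 genes, with a threshold of 0.05. Standard errors were derived from the log2 fold change and F. Fold changes carry edgeR's prior, and CPM per kb divides CPM by the union of exons. DESeq2 1.42.0, limma 3.58.1 and other scalings, filters and sets of libraries served as alternatives. The sources used here state no test, and the design above was chosen for counts. At depths of 39766260 to 66852397 counts, replicate spread and not counting error limits precision for all but the lowest genes. Any 2 libraries of a group differed beyond sampling noise, so none was treated as a repeat deposit of another.

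The genes and lists were chosen with earlier results of these data known. Values in every library are given for genes with an unadjusted p under 0.05 at 24 h and for Hspa5, Xbp1, Atf6, Ern1 and Eif2ak3, and up to 4 genes of smallest p per neighbouring list are named. Promoters are from RefSeq (GRCm38.p6), and Tusc3 was not matched.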

Additional observations from a re-analysis of the deposited data

Results flagged for a closer look

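Single libraries stood far from the other 3 of their group in 6 of 64 combinations of 16 genes and 4 groups, by the gap to the nearest library divided by the range of the group (Dixon's 95% limit, which chance passes in about 1 of 20 groups). At 24 h this was the 3rd library for Hsp90b1 (0.926, at 1061 CPM), Creld2 (0.852, at 191 CPM) and Herpud1 (0.92, at 562 CPM). Among sedentary libraries it was the 4th for Hyou1 (0.879, at 144 CPM, the other 3 at 123 to 125 CPM) and the 2nd for Pdia6 (0.853, at 238 CPM, the other 3 at 209 to 213 CPM). At 1 wk it was the 4th library for Syvn1 (0.915, at 67.1 CPM, the other 3 at 50.3 to 51.7 CPM). That 1 wk library was also the one of its group in which long genes were highest.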

How the results depend on the processing

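No gene of the 36 was called under any edgeR alternative in any comparison. At 24 h against sedentary, where 0 genes were called, DESeq2 called 77 genes, of which 3 of the 36, limma voom 59, of which 2 of the 36, edgeR without a filter on low counts 9 and edgeR with library size alone 2. At 1 wk against sedentary (0 called) DESeq2 called 14 and voom 6, and leaving out 1 library gave 0 to 1. At 2 wk against sedentary (0 called) DESeq2 called 35, voom 7 and no filter 5, and leaving out 1 library gave 0 to 8. At 1 wk against 24 h (0 called) DESeq2 called 59, and leaving out 1 library gave 0 to 2. At 2 wk against 24 h (2 called) DESeq2 called 36, a filter of 1 CPM in 4 libraries, library size alone and voom 4 each, and no filter 8, and leaving out 1 library gave 0 to 7 and leaving out the 3rd and 4th 24 h libraries 0. At 2 wk against 1 wk (0 called) DESeq2 called 4 and voom 1. Over all 4 groups (2 called) DESeq2 called 160, voom 34 and no filter 10, and leaving out 1 library gave 0 to 5. The causes of these differences were not tested. Whether the library numbers pair the samples is not known, and correlations between libraries cannot settle it. The deviations of same-numbered libraries correlated at -0.239 to 0.375, and 8 of 24 pairs were over 0.1. Of 16 libraries, 7 correlated best with their own number. With the number as a replicate block, 5 genes were called at 2 wk against sedentary, 11 at 2 wk against 24 h and 5 over all 4 groups, and 0 of the 36 in any comparison.

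The median of the 36 at 24 h lay between 0.08 and 0.15 in all alternatives, and that at 2 wk against 24 h between -0.22 and -0.05. Counts at an unadjusted p under 0.05 changed with tool and scaling. At 1 wk against 24 h, 6 became 13 with library size alone (1262 of 16126 genes) and 5 with voom (1562). At 2 wk against 24 h, 7 became 12 with library size alone (1478) and 16 with voom (1788). With voom, 0 became 6 at 2 wk against 1 wk (2313), and 1 became 3 at 1 wk against sedentary (2361). Among single genes at 24 h, 18 values changed sign when written to 2 decimals, for Dnajb9, Dnajc10, P4hb, Ern1, Xbp1, Derl3, Sec61b and Ssr4, and the cause was not tested. Dnajb9 was at 0.01 with library size alone, 0.02 with voom, 0.08 without the 2nd 24 h library and 0.06 and 0.02 without the 3rd and 4th sedentary libraries. Dnajc10 was at 0.02 without the 3rd sedentary library. P4hb was at -0.01 without the 3rd 24 h or the 1st sedentary library and at -0.03 without the 3rd and 4th 24 h libraries, where Ern1 was at 0.01, Xbp1 at -0.06 and Sec61b at -0.03. Without the 3rd 24 h library alone, Derl3 was at -0.03 and Sec61b at -0.02. Leaving out each library in turn gave ranges of -0.09 to 0.08 for Dnajb9, -0.03 to 0.81 for Derl3, -0.02 to 0.12 for Sec61b and -0.08 to 0.07 for Ssr4. Ssr4 was at 0.01 with library size alone, 0.02 with voom, 0.05 without the 1st 24 h library and 0.07 without the 3rd sedentary library. Leaving out the 3rd and 4th 24 h libraries was chosen after seeing the data. Edem1, at 0.00, was at -0.06 without the 2nd 24 h and -0.03 without the 1st sedentary library. Depth limits the values of Derl3 most, which had 17 counts in its lowest library.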
